A study of Mus musculus with 16 samples.

Results

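The promoters of 40 genes of the unfolded protein response and the secretory pathway were followed in ATAC-seq of activated mouse B cells. ATAC-seq maps open chromatin through the insertion of sequencing adapters by the Tn5 transposase. The members are 15 chaperones and folding enzymes of the endoplasmic reticulum (ER), 5 sensors and transcription factors of the unfolded protein response (UPR), 6 genes of ER-associated degradation, 8 genes of the translocon and 6 genes of the signal recognition particle (SRP) and its receptor. They were chosen by name and role, as 40 of the 21911 protein-coding gene symbols of the GENCODE annotation on GRCm38. A peak was assigned to a member when it overlapped, by at least 1 bp, the window that begins 1000 bp upstream of any of its transcription start sites and ends 100 bp downstream. By this rule 10462 protein-coding genes had a promoter peak in at least 1 library, and all 40 members were among them.

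The samples were splenic B cells of C57BL/6 mice, isolated by magnetic separation with CD43 beads and activated *in vitro* with LPS at 10 µg/mL and IL-4 at 20 ng/mL. 4 libraries came from Brg1 fl/+ CD23Cre +/- mice and 4 from Brg1 fl/fl CD23Cre +/- mice, each made from 50000 cells. Both genotypes thus carry the Cre transgene and at least 1 floxed allele of *Smarca4*, which encodes Brg1, the ATPase of the SWI/SNF (BAF) chromatin remodeller, and CD23-Cre deletes it late, in mature B cells. The sample labels give 72 hours of activation and the series text gives 96 hours, the labels give no ages, and nothing states that the libraries of a genotype came from separate mice. The deposited lists are named as if replicates 1 and 2, and replicates 3 and 4, of each genotype were pairs, and what the names mark is not stated. The comparison asks whether the promoters of the secretory machinery were as open in cells with both *Smarca4* alleles floxed as in cells with 1. The ATAC-seq libraries used here include none without a floxed allele.

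B cells that turn into antibody-secreting cells enlarge the ER and raise the amount of its folding machinery. Nascent secretory proteins are bound by the signal recognition particle on the ribosome, handed to its receptor, threaded through the Sec61 channel, folded by chaperones such as BiP (*Hspa5*) and protein disulfide isomerases, and sent for degradation through Sel1l and Syvn1 when folding fails. The sensors Ire1 (*Ern1*), Atf6 and Perk (*Eif2ak3*) report misfolded protein, and the factors downstream of them bind short promoter elements such as the ER stress response element (ERSE).

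The lists held 6271 to 14614 peaks per library. Height was measured as the number of fragments at a peak's summit, recovered from the deposited fold and p of each peak and divided by a size factor of the library, and is given as scaled fragments. The median promoter summit had 24 to 79 fragments in the Brg1 fl/+ libraries and 22 to 48 in the Brg1 fl/fl libraries, with the fewest in Brg1 fl/+ replicate 3 and Brg1 fl/fl replicate 2. Median promoter height over the library's own background averaged 54.3 ± 9.11 for the Brg1 fl/+ and 29.3 ± 1.32 for the Brg1 fl/fl libraries (SD, n = 4 each), and the libraries of the genotypes did not overlap (two-sided exact permutation test, p = 0.0286, the smallest that 4 against 4 allows). The shortest peak of a list was 195 to 204 bp in Brg1 fl/+ and 231 to 243 bp in Brg1 fl/fl, which also did not overlap. The part of these differences between the libraries in the results was not tested, except for the scaling by background given with the heights. Among B cell markers, *Ms4a1* and *Pax5* had a promoter peak in all 8 libraries, *Ebf1* in 3 of 4 of each genotype and *Cd79a* in 1 Brg1 fl/+ library. *Cd79b* had none in the window, and neither had any of 5 T cell, 5 myeloid, 3 NK cell and 3 erythroid markers. *Smarca4* had a promoter peak in all 8 libraries (log2 difference 0.26 ± 0.11, SE; limma adjusted p = 0.15). Where that peak lies relative to the floxed segment is not given in the sources used here, so it does not check the genotype.

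Sequence elements of the unfolded protein response were searched under these peaks. Elements and members were both chosen for their known part in this response. The shares below thus describe the members and are not a test. An ERSE, searched on both strands as CCAAT, 9 bases of any kind and CCACG within 150 bp of the summit of each gene's best peak, was present in 8 of 40 members (20%) and in 15 of all 10462 promoters with a peak (0.143%). An ERSE-II, searched as ATTGG, 1 base of any kind and CCACG, was present in 3 members (7.5%) and in 12 promoters in all (0.115%). The CCAAT portion is known to be bound by NF-Y and the CCACG portion by Atf6, and Xbp1 binds related elements. The 11 members with either element were *Hspa5*, *Hsp90b1*, *Calr*, *Canx*, *Pdia6*, *Dnajc3*, *Creld2* and *Syvn1* for ERSE, and *Hyou1*, *Manf* and *Herpud1* for ERSE-II. The 8 of them with the highest peaks are shown on the strand of the gene, from the GRCm38 reference, with the element in capitals, because they show where the element sits. Annotated exon sequence was left out, so that *Hspa5*, whose element lies in an annotated exon, is shown with 5 bases on each side only.
Calr, chr8:84847035-84847133, minus strand: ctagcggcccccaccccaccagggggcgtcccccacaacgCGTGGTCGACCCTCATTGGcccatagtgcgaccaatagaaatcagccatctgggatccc
Canx, chr11:50325760-50325858, minus strand: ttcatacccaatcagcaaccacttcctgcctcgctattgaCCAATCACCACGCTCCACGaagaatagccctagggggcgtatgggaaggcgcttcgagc
Hspa5, chr2:34772020-34772048, plus strand: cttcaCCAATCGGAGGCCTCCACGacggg
Hsp90b1, chr10:86705510-86705696, minus strand: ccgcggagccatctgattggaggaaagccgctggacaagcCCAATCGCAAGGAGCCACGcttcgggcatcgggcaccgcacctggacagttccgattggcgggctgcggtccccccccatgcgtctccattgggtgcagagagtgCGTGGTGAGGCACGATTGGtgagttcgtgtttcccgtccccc
Creld2, chr15:88819480-88819578, plus strand: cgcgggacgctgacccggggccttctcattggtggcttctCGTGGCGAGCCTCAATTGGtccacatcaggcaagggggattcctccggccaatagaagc
Hyou1, chr9:44379451-44379489, plus strand: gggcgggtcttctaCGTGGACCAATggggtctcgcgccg
Dnajc3, chr14:118937787-118937885, plus strand: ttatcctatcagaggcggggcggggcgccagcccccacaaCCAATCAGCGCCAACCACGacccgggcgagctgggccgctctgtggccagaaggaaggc
Pdia6, chr12:17266451-17266544, plus strand: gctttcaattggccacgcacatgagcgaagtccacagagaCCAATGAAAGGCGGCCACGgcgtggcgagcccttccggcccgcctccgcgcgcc

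The elements lay upstream of the nearest start site in all 11 members, with centres from -20 to -150 bp. Their closeness to the summits is set by the search within 150 bp. The element of *Hspa5* lies upstream of its nearest start site but downstream of the first annotated one, at chr2:34771970. *Hsp90b1*, which encodes the chaperone Grp94, had 2 ERSEs, centred at -33 and -138 bp on opposite strands, and *Hyou1*, which encodes the chaperone Grp170, had 2 ERSE-II, of which the one at -20 bp is shown. An ERSE on the other strand reads CGTGG, 9 bases and ATTGG, as in *Calr* and *Creld2*. Of the 16 non-member promoters with either element, those of *Xbp1*, *Derl3* and *Ufd1* belong to genes of the same pathway, and those of *Ttc41* and *Alg12* share the peak of *Hsp90b1* and *Creld2*. The core of the UPR element, TGACG followed by TGG, was found in *Hyou1*, where it overlaps an ERSE-II, and in *Sec62* (5% of members against 1.01% of all promoters with a peak). The core of the amino acid response element, TGATG, 1 base of any kind and AAT, which Atf4 and its partners bind, was found in *Ddit3* (2.5% against 0.249%). CCAAT alone was in 28 members (70% against 38.6%), which includes the 11 above by construction. The GC box GGGCGG was in 28 members (70% against 76.6%), TATAAA was found in *Atf4* (2.5% against 3.65%), and the cAMP response element, TGACG followed by TCA, was found in no member (against 4.15%). Median GC content of the sequences was 65% for members and 65.8% for all promoters with a peak, and the observed over expected ratio of CpG was 0.926 and 0.856. A match is a match of letters and does not show binding.

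**Figure D1:**
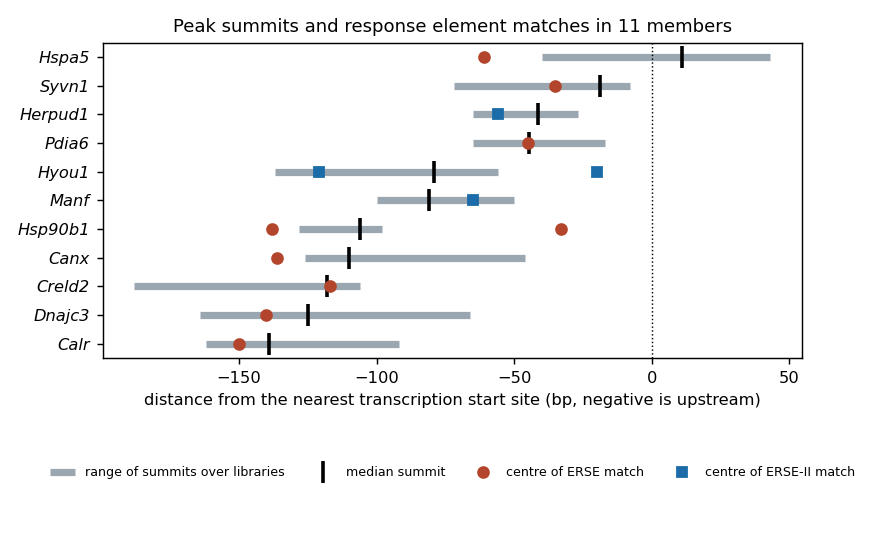
Positions of peak summits and of ERSE and ERSE-II matches in the 11 members that hold one, as distance in bp from the nearest transcription start site (negative values are upstream). Grey bars span the summits of the libraries, black ticks give the median summit, and circles and squares mark the centres of ERSE and ERSE-II matches, all upstream of the nearest start.

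Most member promoters were open in every library. A promoter peak was present in all 8 libraries for 29 of 40 members (72.5%), beside 4819 of the 10462 genes with any promoter peak (46.1%). In the deepest library, Brg1 fl/+ replicate 1, all 40 members had a peak, with a median rank by q at 11.4% of the list, where the peaks of all promoters had a median rank at 32.9%. 18 members (45%) were among the best 10% of that list, as were 15.4% of all promoter peaks. Summits lay upstream of the nearest start site in 32 of 40 members, with a median distance of -56.5 bp over members and -42 bp over all promoter peaks, and *Sec61b* (-303 bp) was the only member whose median summit was more than 200 bp away. 8 members shared their peaks with another protein-coding gene: *Hsp90b1* with *Ttc41*, *Pdia3* with *Catsper2*, *Dnajb11* with *Tbccd1*, *Creld2* with *Alg12*, *Derl2* with *Mis12*, *Sec61b* with *Alg2*, *Srp54a* with *2700097O09Rik* and *Srpr* with *Foxred1*. The value at such a peak cannot be given to either gene alone.

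**Figure D2:**
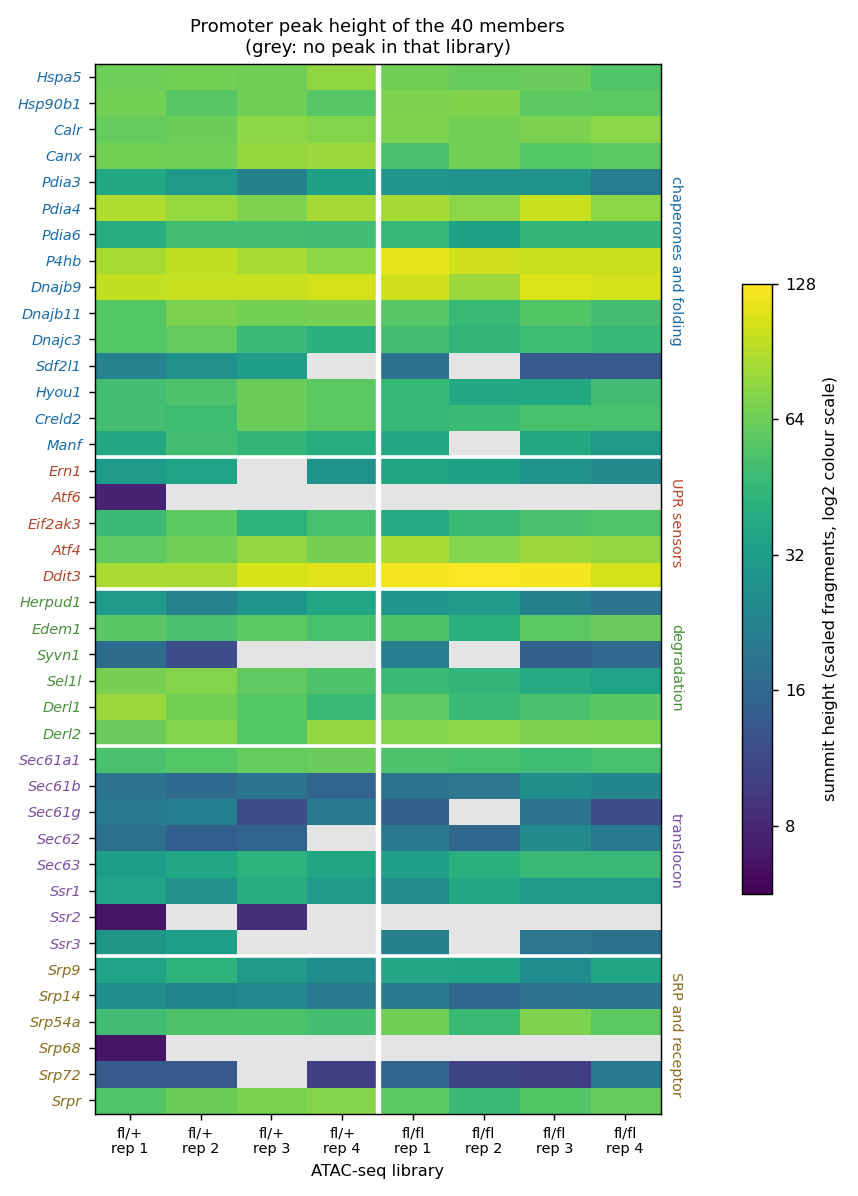
Height of the highest promoter peak of each of the 40 members (rows, by role) in each of the 8 libraries (columns), as scaled fragments at the summit on a log2 colour scale. Grey fields have no peak; they fall mostly in Brg1 fl/+ replicates 3 and 4 and Brg1 fl/fl replicate 2, and *Ddit3*, *Dnajb9* and *P4hb* are the highest rows.

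Peaks were missing in some libraries for 11 members. 5 members had a peak in fewer libraries of Brg1 fl/fl than of Brg1 fl/+ (32.4% of all genes with a promoter peak did), 5 had one in more Brg1 fl/fl libraries (11.5% of all genes did), and *Sdf2l1* had one in 3 libraries of each. The number of members with a peak was 40, 37, 34 and 33 in Brg1 fl/+ replicates 1 to 4 and 37, 32, 37 and 37 in Brg1 fl/fl replicates 1 to 4, so the ranges overlapped. Without Brg1 fl/+ replicate 1 or without Brg1 fl/fl replicate 2 the members with fewer Brg1 fl/fl peaks were 3 in place of 5, and 3 also without Brg1 fl/+ replicate 3 and Brg1 fl/fl replicate 2 together.

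3 of these members had low peaks that were listed in Brg1 fl/+ libraries alone. *Atf6*, the membrane-bound sensor that is cut to a transcription factor, had 15 fragments at the summit in Brg1 fl/+ replicate 1. *Srp68*, a subunit of the signal recognition particle, had 13 in that library, and *Ssr2*, a subunit of the translocon-associated protein complex, had 13 there and 5 in Brg1 fl/+ replicate 3. At the same scaled height these peaks would have 3.77 to 9.63 fragments in the libraries without them, near the 5 to 8 fragments of the lowest promoter peak those libraries list. Their absence in Brg1 fl/fl was not tested, as a library without a peak has no value, and is not taken as a difference.

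The other members with missing peaks each had a peak in libraries of both genotypes. *Sdf2l1*, *Syvn1* and *Ssr3* lacked one in libraries of both genotypes, and each of the others in 1 library only. *Manf*, a secreted ER stress protein, had 72, 62, 26 and 35 fragments in Brg1 fl/+ replicates 1 to 4 and 45, 41 and 34 in Brg1 fl/fl replicates 1, 3 and 4. *Sec61g*, the gamma subunit of the channel, had 40, 27, 7 and 18 fragments in Brg1 fl/+ and 18, 20 and 13 in the same 3 Brg1 fl/fl libraries. Both were missing in Brg1 fl/fl replicate 2 alone. *Ern1*, the sensor that splices *Xbp1* RNA, had 60, 43 and 25 fragments in Brg1 fl/+ replicates 1, 2 and 4 and 43, 19, 30 and 27 in Brg1 fl/fl. *Srp72*, the partner of Srp68, had 27, 17 and 9 fragments in the same Brg1 fl/+ libraries and 19, 6, 11 and 22 in Brg1 fl/fl. Both were missing in Brg1 fl/+ replicate 3 alone. *Sec62*, a helper of the channel, had 35, 18 and 9 fragments in Brg1 fl/+ replicates 1 to 3 and 24, 9, 27 and 22 in Brg1 fl/fl. *Syvn1*, the ubiquitin ligase of degradation, had 33 and 15 fragments in Brg1 fl/+ replicates 1 and 2 and 26, 16 and 18 in Brg1 fl/fl replicates 1, 3 and 4. *Ssr3*, another subunit of the translocon-associated protein complex, had 57 and 41 fragments and 27, 21 and 20 fragments in the same 5 libraries. *Syvn1* and *Ssr3* were thus missing in the same 3 libraries, Brg1 fl/+ replicates 3 and 4 and Brg1 fl/fl replicate 2, and *Sec62* in Brg1 fl/+ replicate 4 alone. For *Sdf2l1*, a component of an ER chaperone complex, the heights were 44, 34 and 19 fragments in Brg1 fl/+ replicates 1 to 3 and 22, 15 and 15 in Brg1 fl/fl replicates 1, 3 and 4. On the scaled values, *Sdf2l1* was at 22.6, 27.2 and 32.4 in the Brg1 fl/+ libraries and at 18.1, 13.8 and 13.7 in the Brg1 fl/fl libraries that list it. *Ssr3* was at 29.3 and 32.9 against 22.2, 19.4 and 18.2. Libraries without a peak are left out, among them Brg1 fl/+ replicate 4 for both genes. These values therefore do not show that the genotypes are separate. Neither gene was tested, because the libraries without a peak have no value. Not every missing peak was at the depth limit: 22.2 fragments would be at the height of *Manf* in Brg1 fl/fl replicate 2 and 21.8 at that of *Ssr3* in Brg1 fl/+ replicate 4, where the lowest promoter peaks listed have 6.

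The heights of the 29 members with a peak in all 8 libraries were compared between genotypes with limma, over 4092 distinct promoters with a peak in all libraries and with Benjamini-Hochberg adjustment over all of them. These 29 had to pass that filter, so their counts describe the measured members and not all 40. 1 was lower in Brg1 fl/fl (4.25% of all promoters were) and none was higher (4.30% of all promoters were), which is close to the shares over all promoters, with 4 lower (12.1% of all promoters) and 3 higher (11.6%) at an unadjusted p under 0.05. Summit heights of the genotypes did not overlap for 3 members that were lower in Brg1 fl/fl (7.04% of all promoters) and 2 that were higher (6.67%). The median log2 difference, Brg1 fl/fl minus Brg1 fl/+, was -0.09 over the members and 0.0037 over all promoters, and the members ranged from -0.61 to 0.32, with 18 below and 11 above 0. The median was -0.04 without Brg1 fl/+ replicate 3 and -0.04 without Brg1 fl/fl replicate 1. The members without overlap were 10 in place of 5 without Brg1 fl/+ replicate 1 and 9 without Brg1 fl/fl replicate 1. Fewer values are compared in these settings, and the share over all promoters is not given for them.

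These directions are relative. Size factors set the median promoter at equal height in all libraries, so each difference is relative to the other promoters. Scaled by each library's background instead, all promoters shifted by -0.80 at the median and all 29 members had a negative difference, 28 of them past the threshold (*Sec61b* was the other). Of all promoters, 93.9% were lower past the threshold with that scaling, and the median of the members relative to the shift was again -0.09. The 11 members with positive differences thus changed sign with the scaling, and the 18 with negative differences did not.

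*Sel1l* was the 1 member past the adjusted threshold. It encodes the adaptor that holds the ubiquitin ligase Syvn1 in the degradation complex, and lies at chr12:91806043-91849157 on the minus strand (GRCm38). Its peaks spanned chr12:91848898-91849464, across the start of the gene and the sequence upstream of it, with summits at -51 to -114 bp from the nearest start site. The summits had 131, 90, 35 and 48 fragments in Brg1 fl/+ replicates 1 to 4 and 57, 25, 42 and 38 in Brg1 fl/fl replicates 1 to 4. Scaled, these are 67.4, 72.1, 59.8 and 53.7 in Brg1 fl/+ and 46.8, 44.3, 38.7 and 34.6 in Brg1 fl/fl. Every Brg1 fl/fl library was below every Brg1 fl/+ library. Means were 63.2 ± 8.14 for the Brg1 fl/+ and 41.1 ± 5.49 for the Brg1 fl/fl libraries (SD, n = 4 each), with a fitted ratio of 0.655 on the scale of log2(value + 1), a log2 difference of -0.61 ± 0.13 (SE; limma adjusted p = 0.005; two-sided exact permutation test, p = 0.0286). With the background scaling its difference relative to the shift of all promoters was -0.62. The call was lost with the deposited fold over local background, which was 17.97, 17.2, 14.1 and 14.4 in Brg1 fl/+ and 14.7, 11.9, 13.5 and 11.6 in Brg1 fl/fl. There the log2 difference relative to all promoters was -0.09 (limma adjusted p = 0.62).

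**Figure D3:**
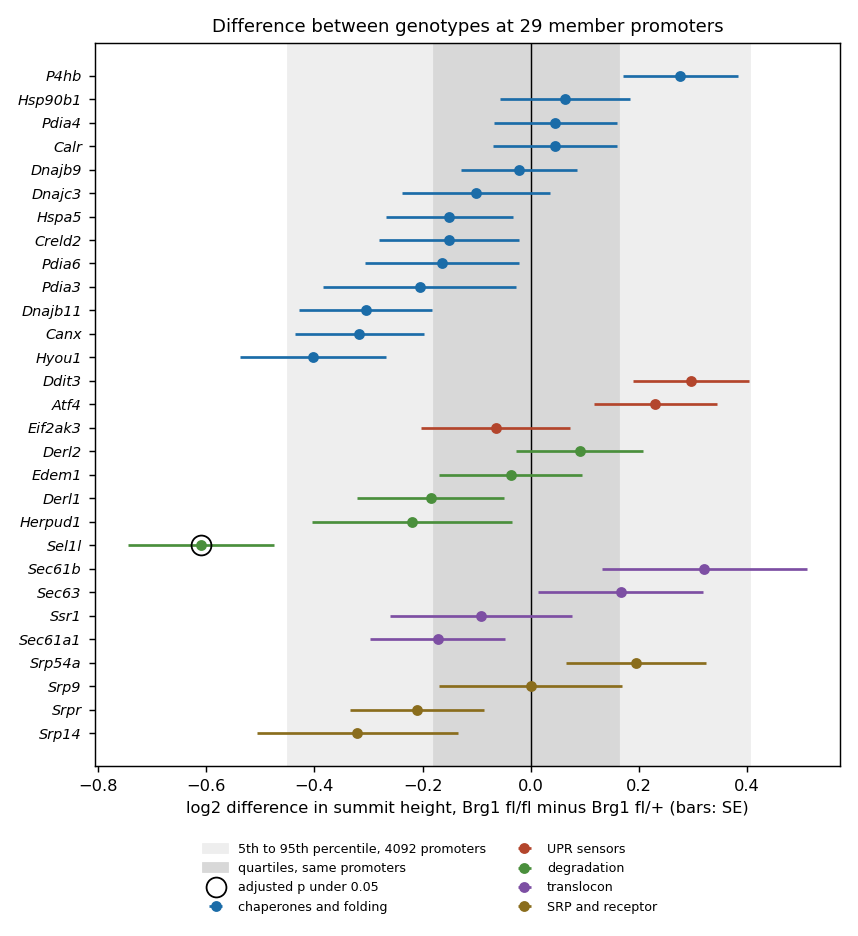
Log2 difference in summit height between Brg1 fl/fl and Brg1 fl/+ (x axis) for the 29 members with a peak in all 8 libraries, by role, with bars of 1 SE. Grey bands give the quartiles and the 5th to 95th percentile of 4092 promoters; *Sel1l*, circled, lies at -0.61, outside the band, and passed an adjusted p of 0.05.

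The other 4 measured genes of degradation did not pass the test. *Derl1* and *Derl2*, membrane proteins of the retrotranslocation complex, had log2 differences of -0.18 and 0.09. *Edem1*, which trims the sugars of misfolded glycoproteins, was at -0.04. *Herpud1*, a stress-induced scaffold of the complex with an ERSE-II, had one of the lowest peaks of the measured members. It was at 30.3, 22.4, 29.03 and 36.9 scaled fragments in Brg1 fl/+ and at 28.7, 31.9, 22.1 and 19.1 in Brg1 fl/fl, which overlap (log2 difference -0.22 ± 0.19, SE; limma adjusted p = 0.50).

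Among the chaperones and folding enzymes, 13 of 15 were measured, 4 with a positive and 9 with a negative difference, and none passed the adjusted test. 4 had an unadjusted p under 0.05 (23.7% of all promoters did). *Hyou1* was at 50.4, 53.7, 63.2 and 58.2 scaled fragments in Brg1 fl/+ and at 46.0, 37.2, 37.8 and 49.2 in Brg1 fl/fl. All Brg1 fl/fl values were below the lowest Brg1 fl/+ value (log2 difference -0.40 ± 0.14, SE; limma adjusted p = 0.053). The adjusted p was 0.044 without Brg1 fl/fl replicate 4, and 0.27 without Brg1 fl/+ replicate 3 and Brg1 fl/fl replicate 2 together.

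*Canx* encodes calnexin, the membrane chaperone of glycoproteins, and holds an ERSE. Its heights were 66.3, 65.7, 78.5 and 80.5 in Brg1 fl/+ and 52.6, 65.6, 56.3 and 58.3 in Brg1 fl/fl. The groups were separated by the narrow gap between 65.6 and 65.7 (log2 difference -0.32 ± 0.12, SE; limma adjusted p = 0.085). *Dnajb11*, a cochaperone of BiP, was at 56.6, 68.9, 66.6 and 67.1 in Brg1 fl/+ and at 56.7, 46.1, 55.3 and 51.0 in Brg1 fl/fl, which overlap (log2 difference -0.30 ± 0.12, SE; limma adjusted p = 0.11), and its difference was 0.03 with the deposited fold.

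*P4hb*, which encodes protein disulfide isomerase, went the other way on the size factor scale. It was at 85.4, 94.5, 85.4 and 75.0 in Brg1 fl/+ and at 113, 103, 97.8 and 98.4 in Brg1 fl/fl, without overlap (log2 difference 0.28 ± 0.11, SE; limma adjusted p = 0.092), and at -0.54 with the background scaling, which is 0.26 relative to the shift of all promoters. *Dnajb9*, another BiP cochaperone, had one of the highest peaks of the list, at 96.7, 96.9, 97.3 and 105 in Brg1 fl/+ and 102, 79.8, 108 and 103 in Brg1 fl/fl, and these values overlap (log2 difference -0.02 ± 0.11, SE; limma adjusted p = 0.93; 0.13 with the deposited fold). Of the best-known UPR targets, *Hspa5* had a log2 difference of -0.15 ± 0.12 (SE; limma adjusted p = 0.46), *Hsp90b1* one of 0.06 ± 0.12 (SE; limma adjusted p = 0.79) and *Calr*, calreticulin, one of 0.05 ± 0.12 (SE; limma adjusted p = 0.85). The disulfide isomerases *Pdia3*, *Pdia4* and *Pdia6* had differences of -0.21, 0.05 and -0.16, the cochaperone *Dnajc3* one of -0.10 and *Creld2* one of -0.15, and none of these passed the test.

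**Figure D4:**
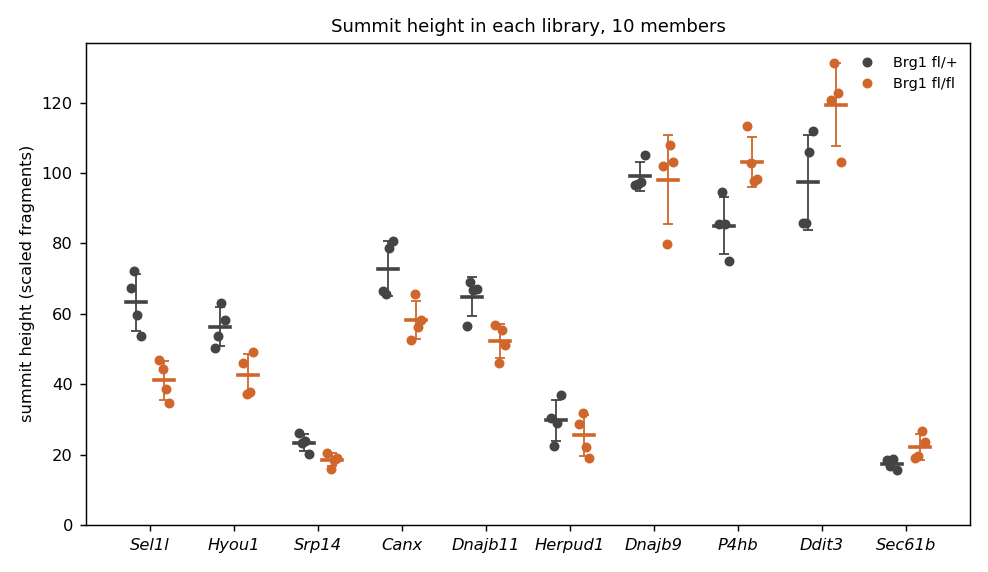
Summit height in scaled fragments (y axis, from 0) of 10 members in each Brg1 fl/+ library (grey points) and each Brg1 fl/fl library (orange points), with the mean and SD of each genotype (n = 4) as lines. The points of the genotypes are separate for *Sel1l*, *Hyou1*, *Canx*, *P4hb* and *Sec61b* and overlap for the other 5.

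Of the 3 measured UPR regulators, *Ddit3* and *Atf4* had positive differences and *Eif2ak3* was at -0.06, and none passed the adjusted test. *Ddit3* encodes Chop, a factor of the late response, and had the highest promoter peak of all members, above 99.2% of the 4092 promoters. Its heights were 85.9, 85.7, 106 and 112 in Brg1 fl/+ and 121, 131, 123 and 103 in Brg1 fl/fl, where replicate 4 lay within the range of the Brg1 fl/+ libraries (log2 difference 0.30 ± 0.11, SE; limma adjusted p = 0.073). Without Brg1 fl/+ replicate 4 the limma adjusted p was 0.042, and without any other single library it was 0.051 to 0.23, which did not pass. With the background scaling the difference was -0.52, or 0.28 relative to the shift. The symbol covers 2 gene entries of the annotation, which were treated as 1 gene. *Atf4*, the factor whose translation rises when Perk is active, was at 59.6, 65.7, 76.8 and 67.1 in Brg1 fl/+ and at 84.6, 72.7, 81.2 and 77.4 in Brg1 fl/fl, which overlap (log2 difference 0.23 ± 0.11, SE; limma adjusted p = 0.21; -0.58 with the background scaling, or 0.22 relative to the shift).

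The measured targeting and translocation genes had lower peaks at the median than the other roles, with overlapping ranges. Mean height over the libraries had a median of 62.9 scaled fragments over the 13 measured chaperones, 73.1 over the 3 UPR regulators, 54.4 over the 5 degradation genes, 35.6 over the 4 translocon genes and 44.5 over the 4 SRP genes, with 40.1 over all 4092 promoters. The ranges were 28.7 to 98.6 for the chaperones, 19.8 to 54.8 for the translocon genes and 20.9 to 60.4 for the SRP genes. The UPR value leaves out *Ern1* and *Atf6*, which lacked a peak in some libraries. *Sec61b*, a subunit of the Sec61 channel, had the lowest peak of the measured members. It was at 18.5, 16.8, 18.8 and 15.7 in Brg1 fl/+ and at 18.9, 19.5, 26.7 and 23.7 in Brg1 fl/fl, separated by the narrow gap between 18.8 and 18.9 (log2 difference 0.32 ± 0.19, SE; limma adjusted p = 0.30; -0.46 with the background scaling, or 0.34 relative to the shift). *Srp14* was at 26.2, 23.2, 23.9 and 20.1 in Brg1 fl/+ and at 20.5, 15.9, 18.4 and 19.1 in Brg1 fl/fl, which overlap (log2 difference -0.32 ± 0.19, SE; limma adjusted p = 0.29). The channel subunit *Sec61a1* had a difference of -0.17, *Sec63* one of 0.17 and *Ssr1* one of -0.09. *Srp54a*, which binds the signal sequence, was at 0.19 and *Srpr*, the receptor, at -0.21, and the log2 difference of *Srp9* rounded to 0. None of these passed the test. Around the summit, 47.4% of the 15 bp words of the copy *Srp54b* and 7.67% of those of *Srp54c* also occur at *Srp54a*, so its height is uncertain where reads could fall on either copy.

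The members with an ERSE or ERSE-II were described together. 9 of the 11 were measured, 2 with a positive and 7 with a negative difference, their median was -0.15 beside -0.09 over all measured members, and none passed the adjusted test.

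Other genes of the pathway gave a similar picture. Of 73 further genes of folding, UPR regulation, degradation, signal peptidase and glycosylation, targeting and ER to Golgi transport, 68 had a promoter peak in some library and 40 in all 8. *Pdia5*, *Fkbp11*, *Mzb1*, *Sar1b* and *Sec13* had none. Of the 40 measured, on the size factor scale, 2 were higher (4.30% of all promoters were) and 1 was lower (4.25%) in Brg1 fl/fl. The median log2 difference of the 40 was -0.06. *Fkbp2*, an ER prolyl isomerase, was higher (log2 difference 0.55 ± 0.10, SE; limma adjusted p = 0.0012), at -0.27 with the background scaling, or 0.53 relative to the shift, and at 0.47 with the deposited fold (limma adjusted p = 0.039). *Sec16a*, the scaffold of ER exit sites, was higher (0.35 ± 0.11, SE; limma adjusted p = 0.035), at -0.47 with the background scaling, or 0.33 relative to the shift, and the adjusted p was 0.06 with the deposited fold. *Spcs3*, a subunit of signal peptidase, was lower (-0.42 ± 0.12, SE; limma adjusted p = 0.027) at a peak it shares with *Asb5*, and was at -0.06 with the deposited fold (limma adjusted p = 0.74). Of the 68 with a peak, 14 had one in fewer and 6 in more Brg1 fl/fl libraries, beside 32.4% and 11.5% of all genes with a promoter peak. *Chac1*, a target of the Perk branch, had a peak in 3 Brg1 fl/+ and 0 Brg1 fl/fl libraries, with 55, 23 and 21 fragments. *Mbtps2*, the protease that cuts Atf6, and *Kdelr1*, the retrieval receptor, each had one in 2 and 0. Their peaks were low, at 19 and 14 fragments for *Mbtps2* and 12 and 9 for *Kdelr1* in Brg1 fl/+ replicates 1 and 2. The lowest promoter peak of a list had 5 to 8 fragments. The peaks of *Chac1* were not that low, at 28.3, 18.4 and 23.5 scaled fragments in Brg1 fl/+ replicates 1, 2 and 4. The lowest promoter peaks of the Brg1 fl/fl lists were at 6.57 to 10.6 scaled fragments. The absences of *Chac1*, *Mbtps2* and *Kdelr1* were not tested. *Xbp1*, the factor made by Ire1 splicing, had a promoter peak in 2 Brg1 fl/+ and 4 Brg1 fl/fl libraries.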

How the data were processed

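The authors mapped paired-end ATAC-seq reads with Bowtie2 (mm10) and ran MACS2 on each library. Versions and peak calling options are not given in the sources used here. The deposited lists give for each peak a fold over local background (a ratio) and −log10 p and −log10 q values. The RNA-seq samples of the series were not analysed here. A further B cell marker gene is not reported here. Groups and replicate numbers came from the sample labels.

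Whole fragments at the summit were solved from the fold and −log10 p to within 0.002 of −log10 p, which succeeded for 99.7% to 99.8% of the peaks of each list, so a height rests on 5 to 188 fragments for the members. Counting error follows from these numbers, and total reads per library are not given in the sources used here. The height of a gene was that of its highest peak in the window. Heights were divided by median-ratio size factors (0.564 to 1.94), and log2(value + 1) was compared with limma 3.58.1 (trend, R 4.3.3), and single values also by an exact permutation test, two-sided, over 70 assignments. The threshold was an adjusted p of 0.05. Genes on the same peaks counted as 1 promoter. Libraries of 1 genotype differed by 0.767 to 1.18 times, and those of different genotypes by 1.00 to 1.78 times, the variance that counting alone gives. Since no source ties the libraries to separate mice, p-values measure the spread between these libraries, which may be technical. Libraries were also averaged in the pairs that the names of the lists give.

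Members and lists were chosen with earlier results of these data known. Values in every library are given for the 6 members with the lowest p, for members whose heights do not overlap, for the 3 highest and 3 lowest, and for members found in unequal numbers of libraries. *Atf4* and *Sdf2l1* were added after their values were seen. The GENCODE vM21 annotation and the GRCm38.p6 genome match the build of the lists, and *Ufd1l* is *Ufd1* there. The steps were tested on simulated data with 4027 promoters. There 55.2% of 1.5-fold and 95.7% of 2-fold differences were called, with 6 false calls. A member that did not pass can thus still differ, even by 1.5-fold. Alternatives were set on the lists, window, start sites, height, scaling, added constant, filter, replicate block, pairs of libraries and single libraries, and 1 was added after seeing the data. Scripts ran under Python 3.11.15 with pysam 0.24.0, samtools 1.23.1, scipy 1.17.1, pandas 2.3.3, matplotlib 3.10.9 and numpy 2.4.6.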

Additional observations from a re-analysis of the deposited data

Results flagged for a closer look

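Within groups of 4 libraries, 2 of 24 groups of values checked held a library far from the other 3 for how closely those agreed. Chance gives about 1 in 20. Brg1 fl/fl replicate 2 had a promoter peak for 32 members, and the other Brg1 fl/fl libraries each for 37. It had the fewest fragments at promoter summits of all libraries, with a median of 22. *Dnajb9* was at 105 scaled fragments in Brg1 fl/+ replicate 4 and at 96.7 to 97.3 in the other Brg1 fl/+ libraries. The summit had 94 fragments in that replicate, and the Brg1 fl/fl libraries ranged more widely, from 79.8 to 108 scaled fragments.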

How the results depend on the processing

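*Sel1l* was lower in Brg1 fl/fl in all 22 alternatives, from -1.42 to -0.09, and passed the threshold in all but the deposited fold. With the deposited fold, centred on the promoters of each library, no member was lower, none was without overlap, the median was 0.066 (0.02 over all promoters), and *Dnajb11* (0.0273) and *Dnajb9* (0.128) turned positive. Before centring, of the 10 members plotted by library, *Canx*, *Hyou1* and *Herpud1* did not overlap. Scaled by background, 28 members and 93.9% of all promoters were lower, 28 members were without overlap and the median was -0.89, where all promoters shifted by -0.80. *Ddit3* (-0.52), *P4hb* (-0.54) and *Sec61b* (-0.46) turned negative, and stayed positive relative to that shift. A −log10 q of at least 5 gave 2 lower members (*Hyou1* was the second) and 3 with more Brg1 fl/fl peaks, and one of at least 10 gave 2 and 3 with fewer. With lists of equal length, 3 members had fewer Brg1 fl/fl peaks and 3 were without overlap. Averaged in pairs, 15 members were without overlap, as fewer values are compared, and the adjusted p of *Sel1l* was 0.0046. The share of all promoters without overlap is not given for any alternative. Without Brg1 fl/+ replicate 3 and Brg1 fl/fl replicate 2 together (added after seeing the data), 3 had fewer Brg1 fl/fl peaks, 9 were without overlap, 33 had a peak in all libraries and *Dnajb9* was at 0.091. Leaving out single libraries gave 29 to 31 members in all libraries, 3 to 6 with fewer and 4 to 6 with more Brg1 fl/fl peaks, 0 to 1 higher, 1 to 2 lower, 4 to 10 without overlap, a median of -0.111 to -0.041, and -0.069 to 0.0888 for *Dnajb9*. With the replicate block, 1 member was lower and 0 were higher, and 163 and 151 of all promoters. Same-numbered libraries did not deviate together (correlations of -0.0387 to -0.00809). Libraries of 1 genotype differed by 0.767 to 1.18 times the variance of counting. The deviations are thus near counting error, and the correlations cannot decide whether the numbers pair samples. The cause of these changes was not tested. Depth limits which low peaks are listed: the lowest promoter peak of a list had 5 to 8 fragments.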
